A study of Mus musculus with 4 samples.

Results

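The kinesin superfamily is the set of microtubule motors that carry cargo along axons, build and break the mitotic spindle, complete cytokinesis and serve cilia. Its genes were taken as the rows of the deposited count table whose symbol reads Kif or Kifc followed by a number and an optional letter, which found 41 of 24982 genes. By role they were split into 13 mitotic and cytokinesis kinesins, 10 axonal transport kinesins, 7 cilium and centriole kinesins and 11 other kinesins. Cenpe, a kinetochore kinesin, does not carry the Kif name and was read with the spindle partners. The measurements are polyA RNA-seq of micro-dissected mouse forebrain at E10.5, an embryonic day at which cortical neurogenesis is beginning. There were 2 control libraries, labelled Chd7 +/f, and 2 conditional knockout (cKO) libraries, labelled Sox1 cre+/-; Chd7 f/f. Chd7 encodes a chromatin remodeller, and Sox1 is a gene of early neural progenitors, from which the Cre takes its name. Every library therefore carries at least 1 floxed Chd7 allele, and only the cKO labels list the Cre allele, so that the effects of Cre and of Chd7 loss cannot be told apart. Whether 1 embryo or a pool of embryos made each library is not stated in the labels, and p-values measure only the spread between these libraries.

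Kinesins share a motor domain that hydrolyses ATP and steps along microtubules, in most families towards the plus end. In neurons, kinesin-1 (the Kif5 heavy chains with light chains), kinesin-2 (Kif3) and kinesin-3 (Kif1) move vesicles, mitochondria and proteins away from the cell body. In dividing cells other families slide spindle microtubules apart, move chromosomes, depolymerize microtubule ends and bundle the midzone at which the cell divides. The forebrain at this age is mostly dividing neuroepithelium with the first neurons at its outer edge.

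In the cKO forebrain 3 kinesin genes were lower and 0 were higher, and all 3 are axonal transport kinesins: Kif21a, Kif1b and Kif21b. The 3 were among 38 kinesins that passed the filter on low counts (edgeR quasi-likelihood test, Benjamini-Hochberg adjusted p under 0.05 over all 14235 genes tested). The same test called 2.13% of all genes lower and 1.57% higher. None of the 13 mitotic and cytokinesis kinesins was called, and their log2 fold changes lay between -0.08 and 0.09. The median log2 fold change was -0.27 over the 10 axonal transport kinesins, 0.01 over the 13 mitotic kinesins and -0.00 over all genes tested. Both cKO libraries were below both controls in counts per TMM-scaled library size (CPM, which stands for that scale throughout) for 7 of the 10 axonal genes, 3 of the 13 mitotic genes and 24.0% of all genes. Both were above both controls for 0 axonal and 0 mitotic genes, against 24.3% of all genes. These counts depend on the split by role, which placed Kif1c, a relative of Kif1a and Kif1b, with the other kinesins. For Kif1c both cKO libraries (115.8 and 112.6 CPM) were above both controls (107.7 and 111.8 CPM), with a log2 fold change of 0.06.

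**Figure D1:**
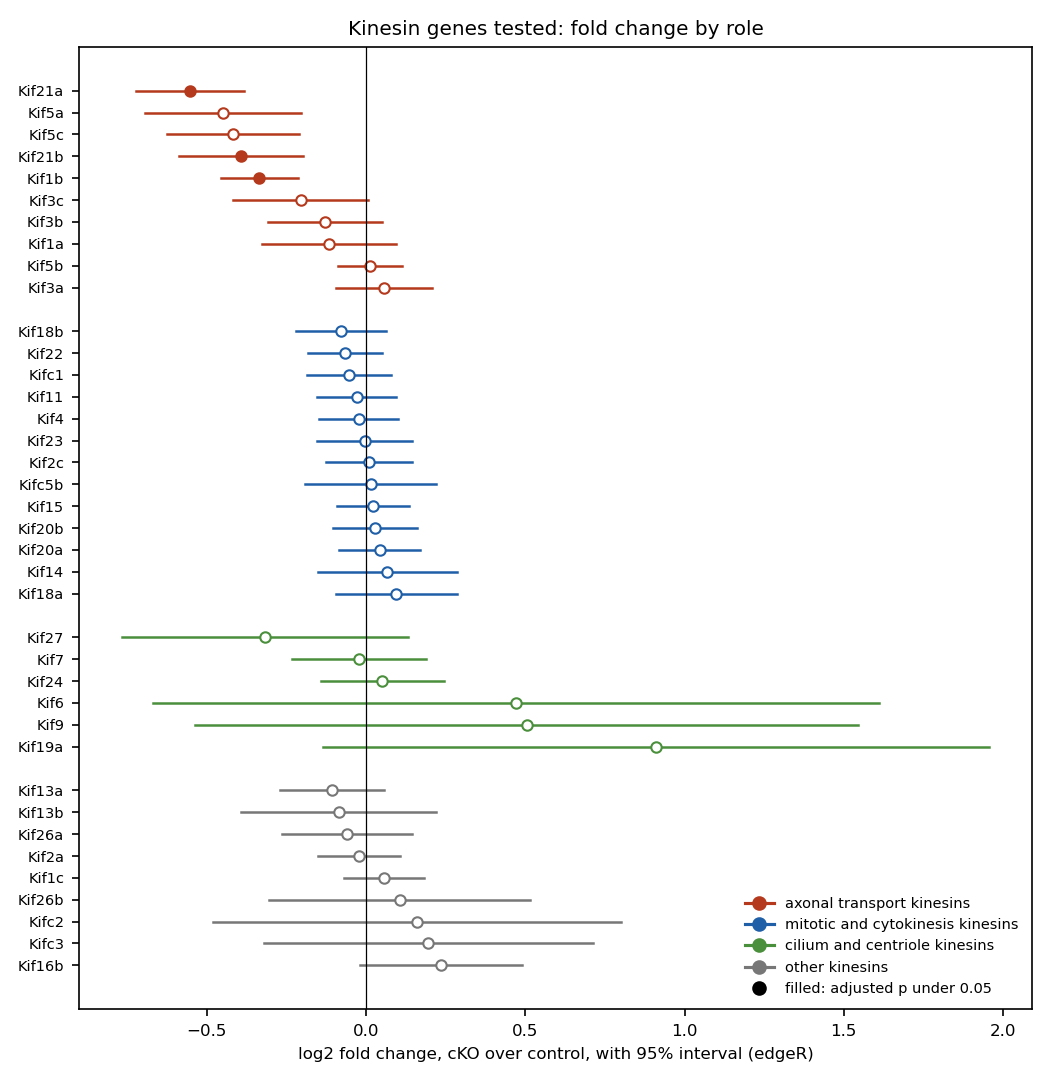
Log2 fold change of the cKO against the control (horizontal axis) for each kinesin tested, grouped by role, with bars for the 95% interval of the edgeR fit. The 3 called genes, Kif21a, Kif1b and Kif21b, lie left of 0 in the axonal transport group, while the mitotic genes lie between -0.08 and 0.09.

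The libraries held 16581252 to 17096522 counts over genes. The targeted gene Chd7 stood at 339 and 345 CPM in the control libraries and at 136 and 132 CPM in the cKO libraries. It was 39.1% of the control level (log2 fold change -1.35, SE 0.05, edgeR adjusted p = 8.7e-05). Of the kinesins not tested, Kif17, a motor for ciliary and dendritic cargo, had 6 and 2 counts in the controls and 9 and 12 in the cKO. Kif12 and Kif2b had 0 counts in each library, where a count of 0 allows up to 3 counts, or 0.177 to 0.181 CPM, for counting error only.

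Kif21a and Kif21b are kinesin-4 motors of neurons that restrain microtubule growth. Kif21a (chromosome 15, 90933275 to 91050382, GRCm38.p6) stood at 244 and 229 CPM in the controls and 149.9 and 172 CPM in the cKO. The groups did not overlap, and cKO replicate 1 was the lowest library. Kif21a fell by 0.55 on the log2 scale (SE 0.07, 95% interval -0.72 to -0.38, edgeR adjusted p = 0.0093), to 68.2% of the control. It was called in all 12 settings and omissions tried, the reported one included. Kif21b (chromosome 1, 136131390 to 136178001) stood at 103 and 89.8 CPM in the controls and 76.8 and 70.0 CPM in the cKO. Both cKO libraries were below both controls. Its log2 fold change was -0.39 (SE 0.08, edgeR adjusted p = 0.0497), at the edge of the threshold. Its adjusted p rose past the threshold on dropping control replicate 1 (0.156), or cKO replicate 1 (0.0742), or cKO replicate 2 (0.238). It was also lost with DESeq2 size factors (0.05003), upper-quartile factors (0.0540), a minimum mean of 5 CPM (0.0501) or limma-voom (0.0552).

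Kif1b is a kinesin-3 that carries synaptic vesicle precursors and mitochondria. Kif1b (chromosome 4, 149176319 to 149307773) stood at 421 and 387 CPM in the controls and at 321 and 319.9 CPM in the cKO. The cKO libraries nearly coincided and lay below both controls. Its log2 fold change was -0.34 (SE 0.05, 95% interval -0.46 to -0.21, edgeR adjusted p = 0.0172). It was -0.27 with control replicate 1 left out and -0.39 with control replicate 2 left out, so its size depends on the controls too. Without cKO replicate 1 the adjusted p was 0.0560 and without cKO replicate 2 it was 0.0820, so that the call needs both cKO libraries. Its relative Kif1a, which also carries synaptic vesicle precursors, stood at 136 and 112 CPM in the controls and 115 and 114 CPM in the cKO. Control replicate 2 was the lowest of these libraries and the groups overlapped (log2 fold change -0.12, edgeR adjusted p = 0.576).

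**Figure D2:**
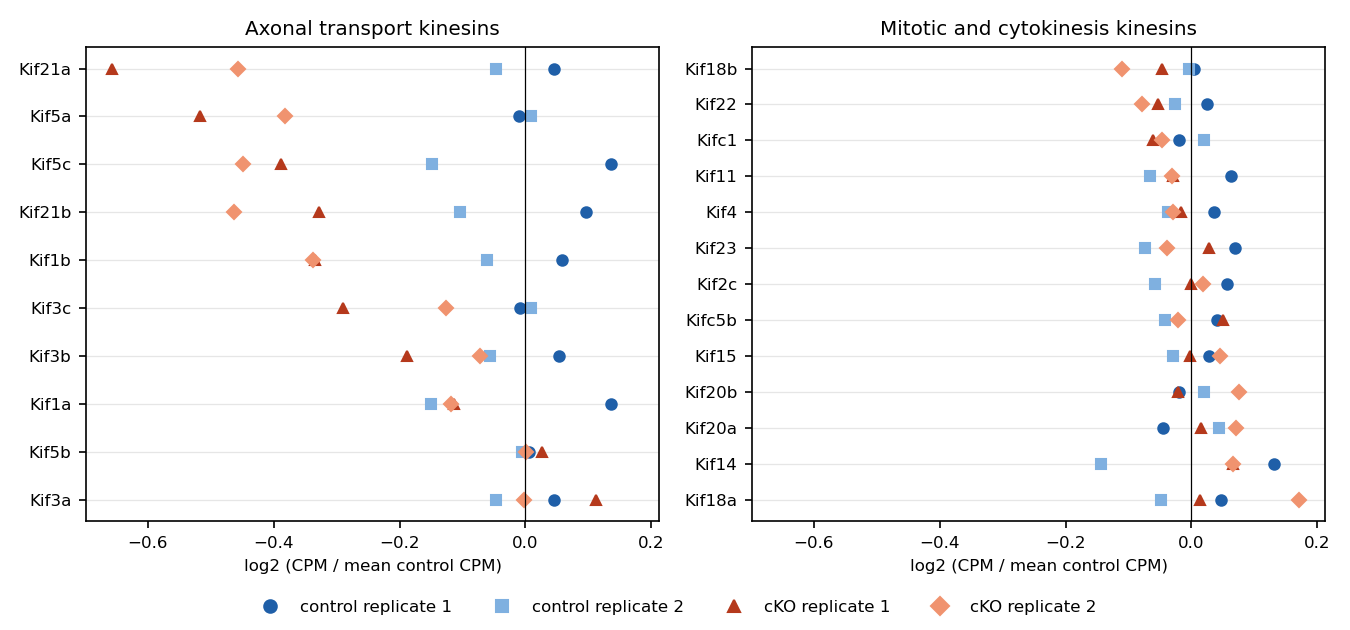
Level of each axonal transport (left) and mitotic (right) kinesin in each of the 4 libraries, as log2 of its CPM over the mean control CPM (horizontal axis), with blue for controls and red or orange for cKO. The cKO libraries of Kif21a, Kif1b, Kif21b, Kif5c and Kif5a lie left of both controls, and on the right the libraries of 10 of the 13 genes overlap.

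The 3 kinesin-1 heavy chains had unlike values. Kif5c, a neuron-enriched heavy chain (chromosome 2, 49619286 to 49774778), stood at 214 and 176 CPM in the controls and at 149 and 143 CPM in the cKO. The controls differed from each other by more than the cKO libraries did, and the groups did not overlap. At -0.42 on the log2 scale (SE 0.09) its difference missed the threshold (edgeR adjusted p = 0.0508). With control replicate 1 left out it was -0.27 (adjusted p = 0.0896), and with control replicate 2 left out it was -0.55 (adjusted p = 0.0011). Kif5c was also called without the count filter (0.0482), in DESeq2's Wald test (0.00098) and with a replicate block (0.0453).

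Kif5a, the other neuron-enriched heavy chain, stood at 27.4 and 27.8 CPM in the controls and at 19.3 and 21.2 CPM in the cKO. The groups did not overlap, and the log2 fold change was -0.45 (SE 0.10, 95% interval -0.69 to -0.20, edgeR adjusted p = 0.0677). Kif5b, the heavy chain found in most cell types, stood at 284 and 282 CPM in the controls and at 289 and 284 CPM in the cKO. Its log2 fold change was 0.01 (SE 0.04) with a 95% interval of -0.09 to 0.11, the narrowest of the 10 axonal genes. In RPKM, which is CPM divided by the exon length in kilobases, Kif5b was the highest of the axonal genes, at 47.0 in the controls and 47.4 in the cKO. Kif5c stood at 28.4 and 21.3 RPKM, and Kif5a was the lowest, at 3.95 and 2.89 RPKM.

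As a share of the 3 heavy chains' counts, Kif5b took 54.1% and 58.1% in the controls and 63.2% and 63.4% in the cKO. Kif5c took 40.7% and 36.1% in the controls and 32.6% and 31.9% in the cKO. Kif5a took 5.21% and 5.72% against 4.22% and 4.73%. Shares within a family add to a fixed total, so a lower share of Kif5c goes with a higher share of Kif5b without any change in Kif5b. Among the 3 Kif1 genes, Kif1b took 63.3% and 63.4% in the controls and 58.2% and 58.5% in the cKO. Kif1c, a broadly expressed relative, took 16.2% and 18.3% against 21.0% and 20.6%. The share of Kif21a among the Kif21 genes overlapped between groups, at 70.3% and 71.8% in the controls and 66.1% and 71.1% in the cKO. With 2 libraries a group an exact permutation test of a single share gives a two-sided p of 0.333 at the smallest, and no test was made of them.

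**Figure D3:**
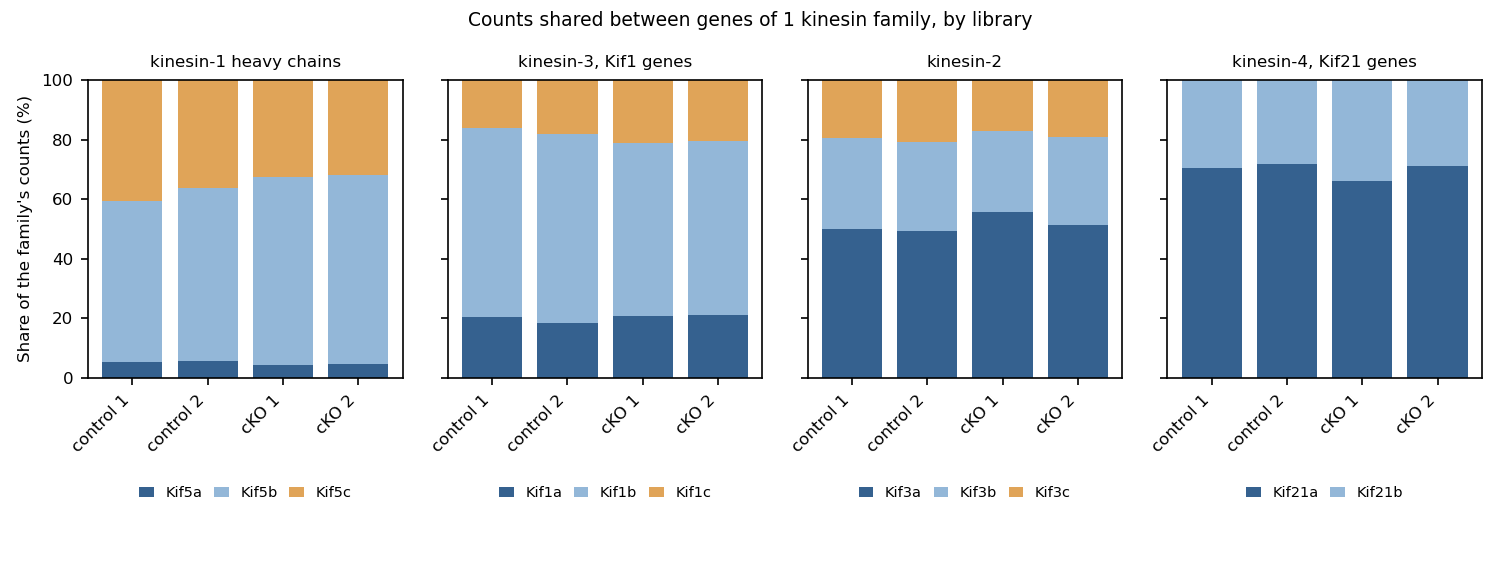
Share of the summed counts (vertical axis, %) that each gene of the kinesin-1, Kif1, kinesin-2 and Kif21 groups took in each library. The Kif5b segment is larger in the cKO (63.2% and 63.4%) than in the controls (54.1% and 58.1%), and the Kif1b segment is smaller.

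Kinesin-2 motors pair Kif3a with Kif3b or Kif3c and carry cargo in axons as well as in cilia. None of the 3 genes was called. Kif3c, the neuron-enriched partner, stood at 37.8 and 38.3 CPM in the controls and at 31.1 and 34.8 CPM in the cKO. Both cKO libraries were lower, by unequal amounts (log2 fold change -0.21, SE 0.09, edgeR adjusted p = 0.298). An antisense gene, 1110002L01Rik, shares 2617 exon bases with Kif3c, and counting without strand cannot separate the pair. Kif3b stood at 58.6 and 54.3 CPM in the controls and at 49.5 and 53.7 CPM in the cKO (edgeR adjusted p = 0.448). Kif3a, the common subunit, stood at 96.2 and 90.3 CPM in the controls and at 101 and 93.1 CPM in the cKO. The groups overlapped, and the log2 fold change of Kif3a was 0.06 (95% interval -0.10 to 0.21, edgeR adjusted p = 0.727).

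The authors' deposited table gave 4 kinesins lower and 0 higher at an adjusted p under 0.05, against 2.49% of all its genes with an adjusted p called lower. The 4 were Kif21a, Kif1b, Kif21b and Kif5c. In the authors' deposited table the adjusted p of Kif5a was 0.161. None of Kif21a, Kif1b, Kif21b, Kif5c and Kif5a shares exon bases with another gene in GENCODE M21.

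The mitotic and cytokinesis kinesins had SEs of 0.05 to 0.09 on the log2 scale, against 0.04 to 0.10 for the axonal genes. None was called by the edgeR test, 0 had an unadjusted p under 0.05, and DESeq2 and limma-voom each called 0. Adjusted p ran from 0.557 to 0.981, and the 95% intervals of the log2 fold changes lay between -0.22 and 0.29. A missed threshold does not show equal levels, and the intervals give the sizes that these libraries allow. In 10 of the 13 genes the libraries of the groups overlapped, and in the other 3 (Kif22, Kif18b and Kifc1) both cKO libraries were lower.

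Among the spindle motors, Kif11 slides antiparallel microtubules apart to make the spindle bipolar. Kif11 stood at 334 and 306 CPM in the controls and at 314 and 313 CPM in the cKO (log2 fold change -0.03, SE 0.05, edgeR adjusted p = 0.839). The cKO libraries lay between the controls. Kif15, which can keep the spindle bipolar when Kif11 is blocked, stood at 214 and 206 CPM against 209.8 and 217 CPM in the cKO (log2 fold change 0.02, SE 0.05, edgeR adjusted p = 0.874). Kif22, a chromosome-arm motor, had the highest level per length of all members, at 74.3 RPKM in the controls and 70.9 RPKM in the cKO. Kif22 stood at 159.8 and 154 CPM in the controls and at 151 and 149 CPM in the cKO (log2 fold change -0.07, SE 0.05, edgeR adjusted p = 0.557). The gap between the groups of Kif22 was smaller than the spread between the controls.

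Kif18a and Kif18b are kinesin-8 motors that shorten or hold the plus ends of spindle microtubules. Kif18a stood at 51.2 and 47.9 CPM in the controls and at 50.02 and 55.8 CPM in the cKO (log2 fold change 0.09, SE 0.08, edgeR adjusted p = 0.618). Kif18b stood at 71.6 and 71.2 CPM in the controls and at 69.1 and 66.1 CPM in the cKO (log2 fold change -0.08, SE 0.06, edgeR adjusted p = 0.574). The pair thus had opposite signs, each within its interval of 0. Kifc1, a minus-end motor of the spindle pole, stood at 80.9 and 83.2 CPM against 78.6 and 79.4 CPM in the cKO (log2 fold change -0.05, SE 0.06, edgeR adjusted p = 0.697). Kifc5b is a near-identical copy of Kifc1, so the division of reads between these genes is uncertain.

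Of the cytokinesis motors, Kif20a, which works at the central spindle, stood at 148 and 157 CPM in the controls and at 154 and 160.3 CPM in the cKO (log2 fold change 0.04, SE 0.05, edgeR adjusted p = 0.752). Kif20a shares 1271 exon bases with Cdc23. Kif14, which binds citron kinase at the midbody, stood at 66.3 and 54.9 CPM in the controls and at 63.5 and 63.4 CPM in the cKO (log2 fold change 0.07, SE 0.09, edgeR adjusted p = 0.784). Its controls were the 2 extreme libraries, with both cKO libraries between them. The other mitotic members, Kif2c, Kif4, Kif20b, Kif23 and Kifc5b, had edgeR adjusted p values of 0.860 to 0.981.

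Summed over genes, the axonal transport kinesins made up 1622 and 1486 CPM in the controls and 1300.3 and 1305.5 CPM in the cKO, which is 83.8% of the control mean. The mitotic kinesins made up 1679.6 and 1605 CPM in the controls and 1629.9 and 1644 CPM in the cKO, which is 99.7%. The ratio of the axonal to the mitotic sum was 0.966 and 0.926 in the controls and 0.798 and 0.794 in the cKO. Each sum is led by its most abundant genes, and the ratio was not tested.

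The promoters of the members, from the RefSeq table of GRCm38.p6, differed in their letters by role. The windows run from 250 bases before to 50 bases after each start, and 33 of the 41 members had 37 windows. The cell cycle genes homology region (CHR, TTTGAA on one strand and TTCAAA on the other) is a promoter element of genes that peak in late cell cycle. Its letters were in 11 of 12 windows of mitotic kinesins (91.7%), in 1 of 9 windows of axonal kinesins (11.1%) and in 17.9% of all 32851 windows. They were in 11.8% of the 14129 windows of genes tested. Windows are not all separate observations. The 9 axonal windows belong to 7 genes, and the windows of Kif1b overlap each other. Those of Kifc1 and Kifc5b, near-identical genes, both hold the CHR letters. In 9 of the 12 mitotic genes a match lay within 50 bases of the start. Kif18a was the mitotic gene with a window and no match, and Kif1a was the axonal gene with one. Some windows lie inside the gene and not at its outermost 5′ end, among them those of Kif14 and Kif2c. The Kif1a match is in such an inner window (chr1:93082431-93082730, in a minus-strand gene that ends at 93102039). The Kif1a window at the 5′ end has no match. The box bound by NF-Y reads CCAAT on one strand and so reads ATTGG when the window shows the other strand. It was in 66.7% of mitotic windows, 44.4% of axonal windows, 37.4% of all windows and 37.5% of windows of genes tested. TTTGGCGC (GCGCCAAA), an E2F core, was in 2 mitotic windows, those of Kif15 and Kif18a, in 0 axonal windows, in 0.514% of all and in 0.92% of windows of genes tested. The GC box, which reads GGGCGG on one strand and therefore reads CCGCCC when seen from the other, was in 6 of 12 mitotic windows, 66.7% of axonal windows, 35.7% of all windows and 62.2% of windows of genes tested. Among members, 1 pair of matches to different motifs overlapped. A match is a description of letters, and no binding was measured in these libraries. The 6 windows shown are those of 3 mitotic genes with a match near the start, the called axonal genes Kif21a and Kif1b, and Kif5c. They are written 5′ to 3′ on the gene's strand, with CHR and CCAAT matches on either strand in capitals. Kif11 lies at chr19:37376132-37376431 on the plus strand, Kif15 at chr9:122950831-122951130 on the plus strand and Kif23, a motor of the central spindle, at chr9:61946750-61947049 on the minus strand. Kif21a lies at chr15:91049902-91050201 on the minus strand, Kif1b at chr4:149307649-149307948 on the minus strand and Kif5c at chr2:49619036-49619335 on the plus strand.
Kif11: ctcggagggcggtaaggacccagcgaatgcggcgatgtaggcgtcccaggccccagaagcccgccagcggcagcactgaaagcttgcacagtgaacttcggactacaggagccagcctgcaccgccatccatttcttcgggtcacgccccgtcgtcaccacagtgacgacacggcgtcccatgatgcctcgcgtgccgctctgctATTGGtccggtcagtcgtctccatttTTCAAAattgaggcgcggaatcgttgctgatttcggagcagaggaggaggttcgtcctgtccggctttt
Kif15: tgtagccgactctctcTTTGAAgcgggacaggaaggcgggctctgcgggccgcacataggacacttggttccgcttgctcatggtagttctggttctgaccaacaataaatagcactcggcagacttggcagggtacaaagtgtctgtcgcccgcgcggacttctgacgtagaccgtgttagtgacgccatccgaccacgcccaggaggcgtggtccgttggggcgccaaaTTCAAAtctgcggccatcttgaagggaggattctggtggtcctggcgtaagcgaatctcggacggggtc
Kif23: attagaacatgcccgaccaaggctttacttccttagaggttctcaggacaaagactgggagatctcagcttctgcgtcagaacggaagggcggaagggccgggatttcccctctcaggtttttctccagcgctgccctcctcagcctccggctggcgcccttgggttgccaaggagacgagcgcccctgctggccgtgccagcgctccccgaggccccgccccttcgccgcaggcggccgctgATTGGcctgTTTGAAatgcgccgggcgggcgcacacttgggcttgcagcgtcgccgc
Kif21a: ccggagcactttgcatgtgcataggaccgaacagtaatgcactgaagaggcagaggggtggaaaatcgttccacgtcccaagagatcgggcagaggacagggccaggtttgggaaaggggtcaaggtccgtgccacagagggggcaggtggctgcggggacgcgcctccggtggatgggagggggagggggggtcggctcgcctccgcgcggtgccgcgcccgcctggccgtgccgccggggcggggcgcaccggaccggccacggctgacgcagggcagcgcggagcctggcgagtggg
Kif1b: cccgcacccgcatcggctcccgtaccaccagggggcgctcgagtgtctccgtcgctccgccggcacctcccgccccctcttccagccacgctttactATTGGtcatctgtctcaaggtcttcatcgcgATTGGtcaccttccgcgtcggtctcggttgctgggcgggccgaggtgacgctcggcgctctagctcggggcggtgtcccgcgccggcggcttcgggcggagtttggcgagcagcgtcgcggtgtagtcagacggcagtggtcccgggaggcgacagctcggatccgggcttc
Kif5c: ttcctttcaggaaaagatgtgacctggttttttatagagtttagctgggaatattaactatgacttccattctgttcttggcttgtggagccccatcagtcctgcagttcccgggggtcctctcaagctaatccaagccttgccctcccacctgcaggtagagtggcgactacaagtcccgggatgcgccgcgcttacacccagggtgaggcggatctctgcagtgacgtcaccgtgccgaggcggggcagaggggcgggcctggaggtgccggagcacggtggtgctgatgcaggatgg

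**Figure D4:**
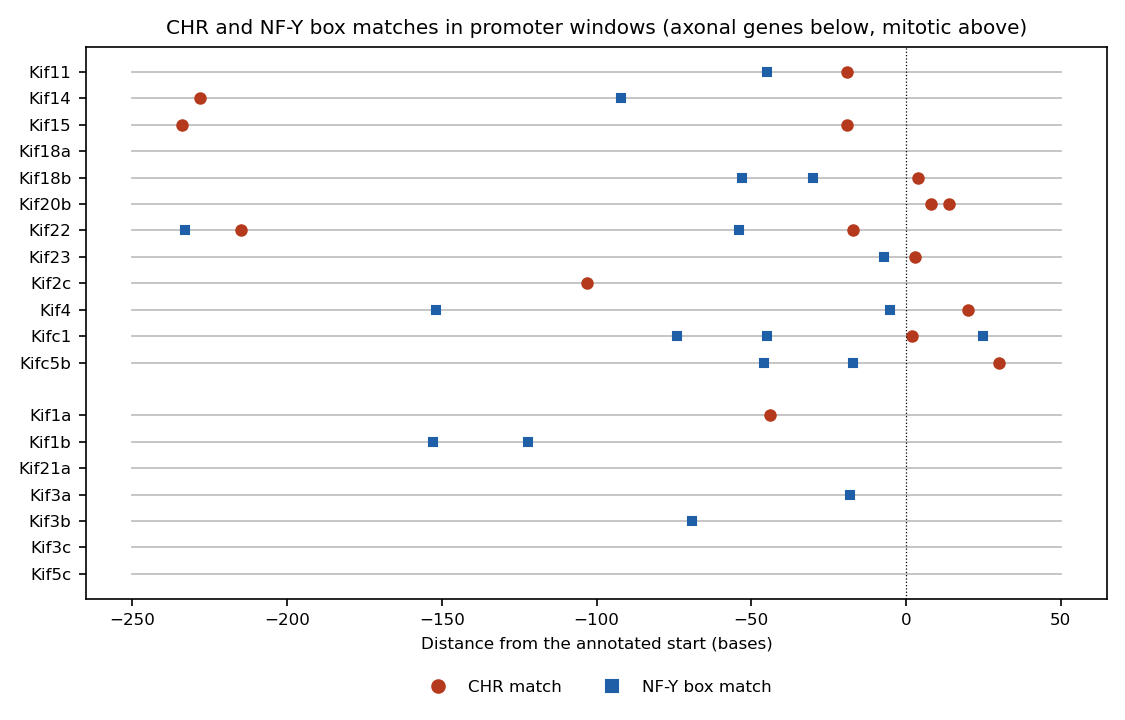
Positions of CHR and NF-Y box matches (horizontal axis, bases from the start) in 1 promoter window of each mitotic and axonal kinesin of the RefSeq table. CHR matches (circles) are present in 11 of 12 mitotic genes and in 1 of 7 axonal genes, Kif1a. Of the 2 windows of Kif1a the one with the match is drawn, which lies inside the gene.

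None of the 6 cilium and centriole kinesins tested was called (edgeR; 0 with an unadjusted p under 0.05, DESeq2 0, limma-voom 0). Kif7, a scaffold of hedgehog signalling at the cilium tip, stood at 34.4 and 31.6 CPM in the controls and at 33.0 and 32.1 CPM in the cKO. Kif24, a centriole kinesin that holds back cilium growth, had a log2 fold change of 0.05 (95% interval -0.14 to 0.24). Kif19a, which shortens cilium microtubules, had 28 and 30 counts in the controls and 32 and 77 in the cKO. The difference was 0.91 on the log2 scale (SE 0.45, edgeR adjusted p = 0.351), 1.40 when cKO replicate 1 was left out, and 0.16 when cKO replicate 2, which held the 77 counts, was left out. The motile cilium kinesins Kif6 and Kif9 had 15 to 47 counts per library. The median log2 fold change of the 6 genes was 0.26. With a library left out the list median ran from 0.04 (cKO replicate 1) to 0.88 (control replicate 1). Both of these medians are over 7 genes, since Kif17 then passed the filter, so that the gene set changed as well as the libraries. A minimum mean of 5 CPM kept 3 genes, with a median of -0.02.

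None of the 9 other kinesins tested was called (edgeR; 0 with an unadjusted p under 0.05, DESeq2 0, limma-voom 0), and their median log2 fold change was 0.06. Kif16b, a motor of early endosomes, stood at 21.5 and 19.9 CPM in the controls and at 23.6 and 25.1 CPM in the cKO. Both cKO libraries were higher (log2 fold change 0.24, SE 0.11, 95% interval -0.02 to 0.49, edgeR adjusted p = 0.322). Kif26b, which lacks motor activity, had 428 counts in cKO replicate 1 and 300 to 343 in the other libraries. Kifc3 likewise had 165 counts in cKO replicate 1 and 115 to 125 elsewhere. Kif2a, a microtubule depolymerase of neurons and spindles, had a log2 fold change of -0.02 (95% interval -0.15 to 0.11).

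Of the 24 kinesin light chains and cargo adaptors tested, 3 were lower and 0 higher, against 2.13% and 1.57% of all genes. Their median log2 fold change was -0.05. Spag9 (also called JIP4), which joins kinesin light chains and dynactin to vesicles, had 5127 and 4922 counts in the controls and 3484 and 3643 in the cKO. It fell by 0.49 on the log2 scale (SE 0.05, edgeR adjusted p = 0.0038) and was called under each setting tried. Fez1, an adaptor between kinesin-1 and its cargo, had 1998 and 1543 counts in the controls and 1140 and 1233 in the cKO. Its log2 fold change was -0.57 (edgeR adjusted p = 0.0493), a call not kept when any library but control replicate 2 was dropped. Dropping control replicate 1 gave -0.36 (adjusted p = 0.0623), and dropping cKO replicate 1 or 2 gave adjusted p of 0.149 and 0.143. The call of Fez1 was also lost with upper-quartile factors (0.0529), a minimum mean of 5 CPM (0.0506), limma-voom (0.0627) or a replicate block (0.0799). Klc1, a neuron-enriched light chain, had 2975 and 2991 counts in the controls and 2329 and 2593 in the cKO. Its log2 fold change was -0.27 (edgeR adjusted p = 0.0499, just under the threshold). The call was lost when any library was left out, with adjusted p of 0.141 without control replicate 1, 0.0594 without control replicate 2, 0.210 without cKO replicate 1 and 0.0769 without cKO replicate 2. Upper-quartile factors (0.0585), no count filter (0.0502) and a replicate block (0.0814) lost the call of Klc1 as well.

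Dynein and dynactin move cargo the other way along microtubules. None of their 25 genes tested was called (edgeR; 4 with an unadjusted p under 0.05, all lower; DESeq2 0, limma-voom 0), and the median log2 fold change was -0.07. Dync1h1, the dynein heavy chain, had a log2 fold change of -0.16 (edgeR adjusted p = 0.117), and Dynlt3, a light chain, had -0.33 (0.197). Of 23 spindle and midbody partners of the mitotic kinesins, none was called (edgeR; 2 with an unadjusted p under 0.05, both lower; DESeq2 0, limma-voom 0), with a median of -0.02. Numa1, which anchors dynein at spindle poles, had a log2 fold change of -0.18 (edgeR adjusted p = 0.0785), and Prc1, the midzone bundler to which Kif4 binds, had -0.16 (0.153). Cenpe had 4093 and 4001 counts in the controls and 3917 and 3944 in the cKO (log2 fold change -0.04, edgeR adjusted p = 0.762).

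Cell type markers were read beside the kinesins, since in bulk tissue fewer cells of a type and less RNA per cell cannot be told apart. Of 18 neuron markers 5 were lower and 0 higher, against 2.13% and 1.57% of all genes. Their median log2 fold change was -0.61. The count of lower neuron markers was 9 with control replicate 2 left out, and 3 with either cKO replicate left out or by limma-voom. Their summed level was 1009.3 to 1217 CPM in the controls and 715 to 740.2 CPM in the cKO. Of 14 markers of dividing cells 0 were called (edgeR; 1 higher with an unadjusted p under 0.05, DESeq2 0, limma-voom 0), and their sum was 5558 to 5649 CPM in the controls and 5433 to 5542 CPM in the cKO. Both cKO libraries were below both controls for 15 of the 18 neuron markers and above both for 1, against 24.0% and 24.3% of all genes. These 2 counts were 9 and 1 of 12 neural progenitor, 10 and 1 of 12 endothelial and 9 and 0 of 9 erythroid markers. They were 15 and 0 of 25 dynein and dynactin genes, and 10 and 2 of 24 light chains and adaptors. They were 7 and 1 of 23 spindle and midbody partners, and 3 and 3 of 14 markers of dividing cells. The part of neurons in the result for the axonal kinesins was not tested. The list of 12 neural progenitor markers holds Sox1, the gene from which the Cre takes its name. Whether the Cre allele alters Sox1 counts was not tested. Of these 12 markers 4 were lower and 0 higher, against 2.13% and 1.57% of all genes. Their median was -0.25, and their part in the result for the axonal kinesins was not tested either. Their count of lower genes was 7 with control replicate 2 left out, 2 with control replicate 1 or cKO replicate 2 left out or with a replicate block, and 1 with cKO replicate 1 left out.

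Other cell types were present at varied levels. Of 13 erythroid markers, 4 were at 0 in every library and 6 of the 9 tested were lower, against 2.13% of all genes. The erythroid sums were 2852 to 3071 CPM in the controls and 1808 to 1895 CPM in the cKO. The counts of 0 do not show that these 4 genes were not expressed. No marker of the endothelial, crest and mesenchyme, surface ectoderm or microglia lists was called by edgeR. At an unadjusted p under 0.05 in edgeR these lists held 7, 3, 1 and 0 genes. No share over all genes was taken at that unadjusted cut. The unadjusted counts of these and the other lists therefore have no background to be read against. DESeq2 called 1 crest gene lower and 1 surface ectoderm gene higher, and limma-voom called 1 surface ectoderm gene higher. With cKO replicate 1 left out edgeR called 5 crest genes lower, and with control replicate 2 left out it called 6 surface ectoderm genes higher, 1 crest gene lower and 1 crest gene higher. A replicate block gave 1 crest gene lower, and no count filter gave 1 surface ectoderm gene higher. The crest and mesenchyme sum was 974 to 1047 CPM in the controls and 622 to 947 CPM in the cKO, with cKO replicate 2 the lowest. The surface ectoderm sum was 15.1 to 60.6 CPM in the controls and 52.7 to 69.0 CPM in the cKO, with control replicate 1 apart from the rest. The part of these cell types in the kinesin results was not tested.

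**Figure D5:**
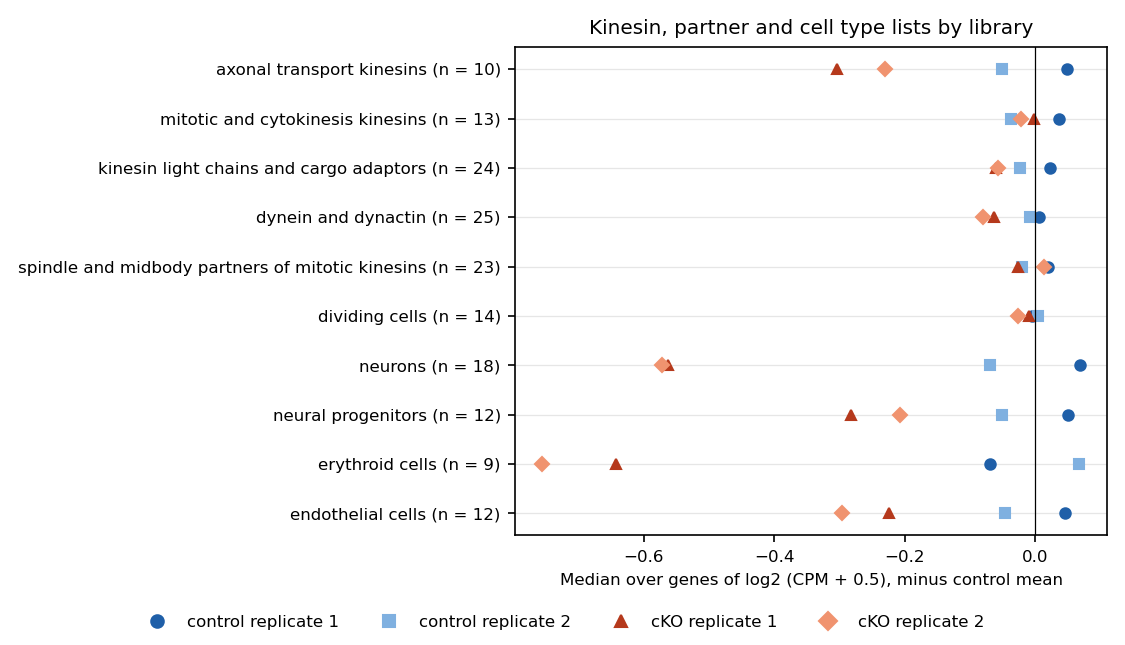
Median over each list's genes of log2(CPM + 0.5) minus the control mean (horizontal axis) in each library, for 2 kinesin lists, their partners and 5 marker lists. The axonal kinesins stand at -0.30 and -0.23 and the neuron markers at -0.56 and -0.57 in the cKO libraries, while the mitotic kinesins and the dividing cell markers stand near 0. Lower values are not particular to neurons. In the cKO libraries neural progenitor markers, Sox1 among them, stand at -0.28 and -0.21. Endothelial markers stand there at -0.22 and -0.30 and erythroid markers at -0.64 and -0.76.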

How the data were processed

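PolyA RNA of 4 forebrain libraries (VAHTS Universal V8 kit, per the labels' protocols) was counted by the authors. The deposited raw counts of paired reads over exons, summed per gene, came from featureCounts 2.0.1 with mm10 RefSeq gene models and no strand option, per the file headers. HISAT2 and DESeq2 are named in the submitters' processing notes, with versions not given in the sources used here. Also deposited by the authors were normalized counts (a signal scaled per library), log2 fold changes, a Wald statistic (a score) and p-values with adjusted p-values. Of these the log2 fold changes and adjusted p-values were used, where the authors' deposited table is named. The normalized counts served only to check the sign of those fold changes.

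Libraries were grouped by the labelled genotype, and 0 value columns were left without a sample. Genes were kept by filterByExpr (minimum count 10), library sizes were scaled by TMM, and the groups were compared in edgeR 4.0.16 (glmQLFit, glmQLFTest, R 4.3.3) with no covariate. Benjamini-Hochberg adjustment of p-values covered 14235 genes, and an adjusted p under 0.05 was called. The SE is the fold change over the root of F, and the common biological coefficient of variation was 0.0785. The fit was also run on counts simulated with its own dispersion. The outcome of that run is not given here and is not used as support. CPM used library sizes scaled by TMM, and RPKM used these CPM with the union of exons in GENCODE M21. The replicates of a group differed beyond sampling noise (chi-square per degree of freedom 4.78 for the controls and 4.07 for the cKO).

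The members and lists were chosen with earlier results of these data known. Full values are given for called members, the 6 smallest p and 3 highest RPKM of the axonal and mitotic lists, and the smallest p of each other list; further members were named after their values were seen, to complete a family or show few counts. Of the list symbols, 2 (Kif28 and Ahsp) had no row and 1 (Kifbp) was matched by synonym. All 41 members matched RefSeq genes; 15 share exon bases with another gene, 13 of them on the opposite strand. Alternatives were DESeq2 1.42.0 (its test and its size factors), limma-voom (limma 3.58.1), upper-quartile factors, no filter, a minimum mean of 5 CPM (here of total counts), a replicate block and leaving out each library.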

Additional observations from a re-analysis of the deposited data

How the results depend on the processing

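The number of kinesins called lower was 3 as reported and ran from 2 to 4 under the other tools, scalings and filters: 4 with DESeq2's Wald test or no filter, and 2 with DESeq2 size factors, upper-quartile factors, limma-voom or a minimum of 5 CPM. When a library was left out it ran from 1 to 4, at 2 when control replicate 1 was dropped, 4 when control replicate 2 was dropped, and 1 when either cKO replicate was dropped. All of these calls were axonal transport kinesins. The mitotic kinesins had 0 calls in either direction in every setting, and 0 kinesins were called higher in any. With a library left out, the median log2 fold change ran from -0.32 to -0.23 for the axonal genes and from -0.0462 to 0.0365 for the mitotic genes. The number of all genes called lower ran from 131 to 418 and of those called higher from 80 to 351, against 303 and 223. With a replicate block that pairs same-numbered libraries, 4 kinesins were called lower and 0 higher. Over all genes the block gave 211 lower and 137 higher. The same-numbered libraries are not known to share a source, and their deviations had a correlation of -0.05 over 2 pairs. Leaving out a library leaves 1 in its group, which is then assumed to vary like the other group. Depth limits the values of members with few counts, such as Kif19a, Kif6 and Kif9, whose SEs were 0.45 to 0.49 on the log2 scale.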
